A study of Mus musculus with 10 samples.

Results

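The 9 complement genes *C1qa*, *C1qb*, *C1qc*, *C3*, *C4b*, *Cfb*, *C3ar1*, *C5ar1* and *Serping1* were followed in sorted retinal cells after optic nerve crush (ONC). They were chosen by symbol, and all 9 were found among the 53974 genes of the RNA-seq table and among the 17555 genes that were abundant enough to test. Of the 16600 regions in the ATAC-seq comparison (an assay that marks open chromatin by transposase insertion), 0 lay within 1000 bp of an end of any of the 9. Adult C57BL/6 mice of 8 to 10 weeks, all carrying *Arid1a* fl/fl alleles, were given AAV2-GFP (labelled WT, genotype *Arid1a* fl/fl) or AAV2-Cre (labelled cKO, genotype *Arid1a* del/del) in the vitreous 2 weeks before ONC, and retinas were taken 3 days after ONC. ARID1A is a subunit of the SWI/SNF chromatin remodelling complex. Injury, floxed alleles and an AAV2 injection were thus common to both groups, and none of the libraries came from an uninjured or uninjected retina. The virus itself differed by label, and the paper gives a lower titer for AAV2-Cre than for AAV2-GFP. It proposes that its viral infection and immunity terms may be tied to the titers and the operations. Label, virus and titer cannot be told apart here. Both viruses carry a promoter that is not limited to a cell type. Per sample, 4 to 5 retinas were pooled. Live cells bearing Thy1.2, a surface antigen of retinal ganglion cells (RGCs) that T cells also carry, were then sorted. RNA-seq had 3 libraries per label and ATAC-seq had 2 per label.

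Complement is a cascade of secreted proteins that tags surfaces for removal. The classical pathway starts with C1q, a bouquet of chains encoded by *C1qa*, *C1qb* and *C1qc*, which with the proteases C1r and C1s cleaves C4 and C2, while the alternative pathway uses factor B to amplify cleavage of C3, the component on which all routes converge. In the retina and brain C1q is made chiefly by microglia and macrophages, C3 and C4 also by reactive glia, and the tagging of synapses and injured neurons by C1q and C3 is a known part of development and disease.

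RNA levels are given as TPM (transcript level per length, scaled to the same total in each library), for which the depth is unknown, and groups were compared with limma on log2(TPM + 1), a scale that understates changes of low genes. *Arid1a* itself stood at 18.8, 11.7 and 14.1 TPM in WT replicates 1, 2 and 3 and at 18.8, 27.9 and 25.0 TPM in cKO replicates 1, 2 and 3 (log2 fold change 0.66 with a standard error, SE, of 0.28, adjusted p = 0.274), so the cKO libraries did not show less of its RNA and every direction given for RNA rests on the labels. RGC markers were uneven: *Pou4f2* was listed at 0 in 5 of the 6 libraries and *Rbpms* lay between 1.82 and 6.43 TPM, while *Isl1*, which other retinal neurons also express, lay between 51.9 and 104 TPM and *Thy1*, the sorted antigen, between 51.9 and 129 TPM. Rod markers summed to 12300 to 17163 TPM in the libraries labelled WT and to 25059 to 47812 TPM in those labelled cKO. Across all genes tested, 1 gene (0.00570%) passed an adjusted p of 0.05 in limma and 0% were called lower, with 1133 lower at an unadjusted p under 0.05. The median log2 fold change was 0.16.

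RNA of all 9 complement genes was lower on average in the libraries labelled cKO, with log2 fold changes from -1.93 for *Cfb* to -0.21 for *C5ar1* and a median of -0.78, where 38.9% of all genes tested were below 0. None passed an adjusted p of 0.05 (lowest 0.124). At an unadjusted p under 0.05, 4 of the 9 were lower (*C1qa*, *C1qb*, *Cfb* and *Serping1*), against 6.45% of all genes, and the same 4 had every cKO library below every WT library, against 7.18% of all genes. With the replicate number as a block, 7 of the 9 were lower at an unadjusted p under 0.05, against 8.52% of all genes, and the lowest adjusted p was 0.0809. In all 3 same-numbered pairs of libraries 7 of the 9 were lower in cKO, while *C3ar1* and *C5ar1* each had 1 pair the other way. The 9 genes share these 3 pairs and are not separate replicates. The share of all genes lower in every pair was not computed, and the labels do not give the pairing. Scaling by the median of ratios, which moved the median of all genes to 0.01, left all 9 below 0 with a median of -0.95 and 4 of them lower at an unadjusted p under 0.05, against 9.54% of all genes. In bulk libraries, fewer cells of a type and less RNA per cell cannot be told apart.

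**Figure D1:**
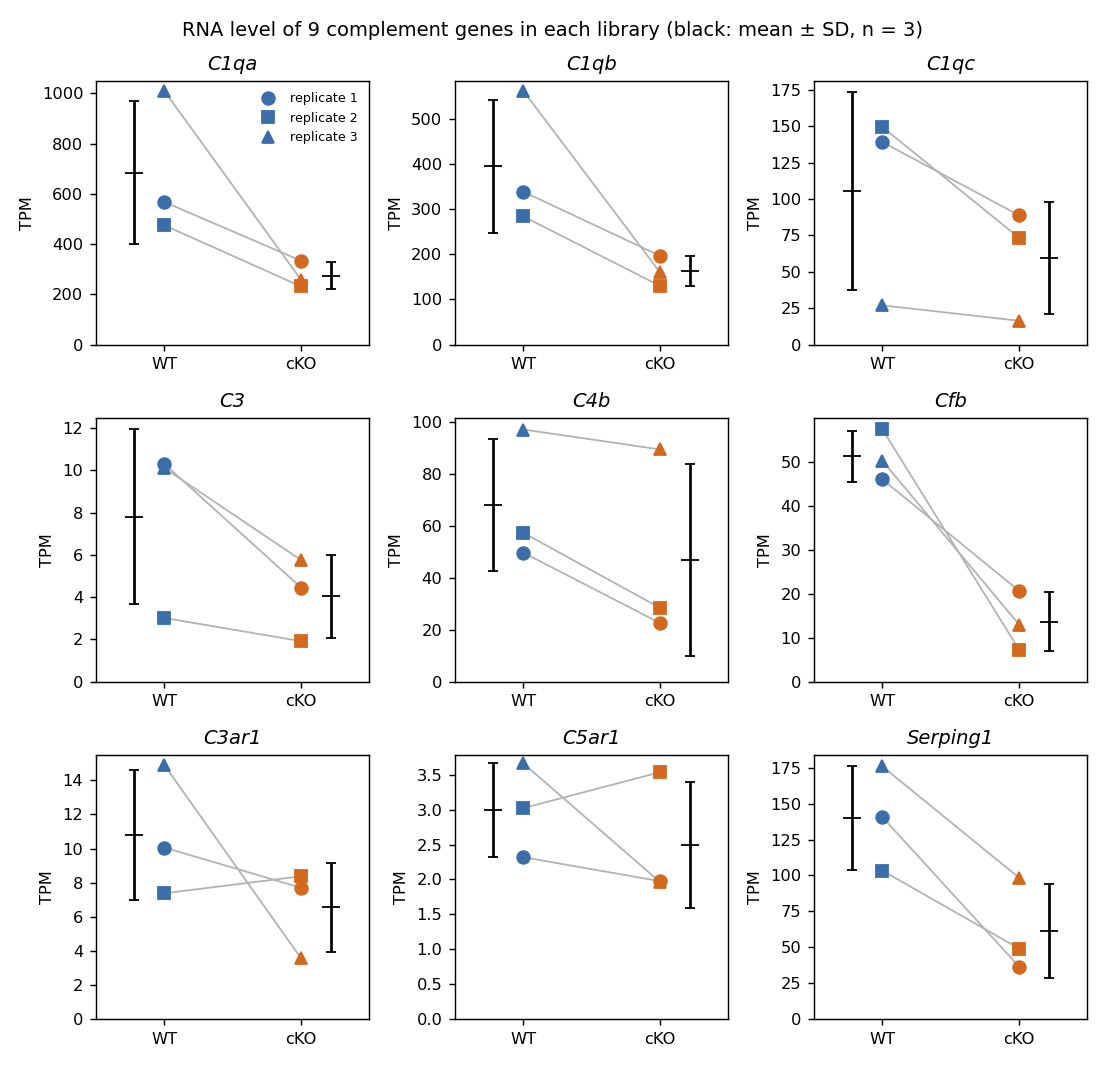
RNA level of the 9 complement genes in each RNA-seq library, in TPM on a linear axis from 0. Blue points are libraries labelled WT and orange points libraries labelled cKO, marker shapes give the replicate number, grey lines join equal numbers, and black bars give the mean ± SD (n = 3). The groups do not overlap for *C1qa*, *C1qb*, *Cfb* and *Serping1*, while *C1qc* is lowest in replicate 3 of both labels.

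The C1q genes lie side by side on chromosome 4 of GRCm38, within 18719 bases (chr4:136880126-136898844), and *C1qa* and *C1qb* were the most abundant of the 9. *C1qa* (chr4:136895916-136898844), the A chain, stood at 568, 475 and 1010.0 TPM in WT replicates 1, 2 and 3 and at 334, 232 and 258 TPM in the cKO replicates. *C1qb* (chr4:136880126-136886200), the B chain, stood at 338, 284 and 562 TPM (WT) and at 196, 130 and 160 TPM (cKO). In both genes WT replicate 3 was by far the highest library and the groups did not overlap. The means of *C1qa* were 684 ± 286 TPM and 275 ± 53.1 TPM (SD, n = 3), with a log2 fold change of -1.25 (SE 0.33, adjusted p = 0.142). Those of *C1qb* were 395 ± 147 TPM and 162 ± 33.3 TPM (SD, n = 3), with a log2 fold change of -1.24 (SE 0.31, adjusted p = 0.138). For either gene the exact two-sided permutation test gave p = 0.1, the smallest that 3 libraries against 3 allow.

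*C1qc* (chr4:136889801-136892936), the C chain, did not follow the other chains across libraries. It stood at 139, 149 and 27.0 TPM in WT replicates 1 to 3 and at 88.7, 73.3 and 16.4 TPM in cKO replicates 1 to 3, so that replicate 3 was the lowest of both labels and the groups overlapped. Its means were 105 ± 67.9 TPM and 59.5 ± 38.1 TPM (SD, n = 3), and its log2 fold change of -0.78 (SE 0.84, adjusted p = 0.651) was smaller than its error. The value ranged from -0.04 without cKO replicate 3 to -1.57 without WT replicate 3. With the replicate number as a block the standard error was 0.21 and the adjusted p 0.124. The 3 pairs were all lower in cKO.

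Ratios between the chains, which are levels per transcript length, were taken in each library. *C1qa* over *C1qb* was between 1.61 and 1.80 in all 6 libraries, with means of 1.72 ± 0.0704 (WT) and 1.70 ± 0.0840 (cKO; SD, n = 3; exact two-sided permutation test, p = 0.9). *C1qc* over *C1qb* was 0.411, 0.526 and 0.0480 in WT replicates 1, 2 and 3 and 0.452, 0.564 and 0.103 in the cKO replicates. It was thus at least 0.411 in replicates 1 and 2 of both labels and far lower in replicate 3 of both, and its ranges under the labels overlapped (exact two-sided permutation test, p = 0.7). Within same-numbered pairs it was higher in cKO in 3 of 3, by 0.0406, 0.0375 and 0.0545 (exact two-sided sign-flip test, p = 0.25, the smallest that 3 pairs allow). The difference of the means, 0.0442, ranged from -0.0960 without WT replicate 3 to 0.179 without cKO replicate 3.

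**Figure D2:**
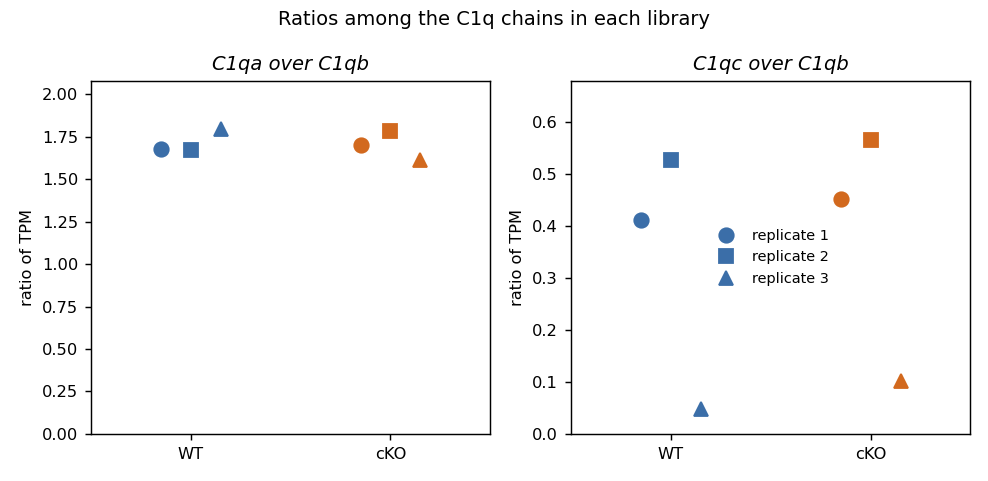
Ratio of TPM of *C1qa* over *C1qb* (left) and of *C1qc* over *C1qb* (right) in each library, by label, on linear axes from 0. Each point is 1 library, blue for WT and orange for cKO, with shapes for replicate numbers. The left ratio stays between 1.61 and 1.80, while the right ratio is 0.0480 and 0.103 in replicate 3 of WT and cKO and at least 0.411 in the other libraries.

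The sequence before the start of *C1qb* and *C1qc* is shown because these neighbours encode parts of 1 protein. Why *C1qc* was low in replicate 3 of both labels was not tested. Sequences are from RefSeq on GRCm38.p6, read 5′ to 3′ along the gene, which lies on the minus strand for each gene shown, and end just before the start given there. Capitals mark letters matching a motif of a factor that acts in immune cells or glia, searched on both strands of the 250 bases before the start: GAGGAAG (PU.1 core), TTCNNNGAA (GAS of STAT factors), GAAA and GAAA with 2 bases between (ISRE of IRF factors), TGANTCA (AP-1), TTGCNNAA (C/EBP) and GGGA and TTTCC with 1 base between (NF-kB). The window of *C1qc* (chr4:136892915-136893164, the last bases of which fall within the gene's span) holds the PU.1 core on the opposite strand at 194 to 188 bases before the start, a motif present in 10.6% of the 32851 promoters of this length. That of *C1qb* (chr4:136886201-136886350 is printed) holds none of the 6.
C1qb: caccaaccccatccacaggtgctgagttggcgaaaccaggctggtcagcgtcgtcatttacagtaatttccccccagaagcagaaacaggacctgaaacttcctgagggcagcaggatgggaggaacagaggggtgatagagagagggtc
C1qc: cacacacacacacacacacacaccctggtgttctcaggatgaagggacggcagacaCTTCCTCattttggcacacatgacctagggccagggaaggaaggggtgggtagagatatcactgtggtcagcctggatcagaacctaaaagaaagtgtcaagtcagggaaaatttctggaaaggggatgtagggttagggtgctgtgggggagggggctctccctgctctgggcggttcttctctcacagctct

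*C4b* (chr17:34728139-34743902) encodes complement C4, which C1s cleaves and which binds covalently to the tagged surface. It stood at 49.7, 57.3 and 97.0 TPM in WT replicates 1 to 3 and at 22.6, 28.4 and 89.3 TPM in cKO replicates 1 to 3, where replicate 3 was the highest of each label. The groups overlapped, with means of 68.0 ± 25.4 TPM and 46.8 ± 37.0 TPM (SD, n = 3) and a log2 fold change of -0.74 (SE 0.53, adjusted p = 0.499). Without cKO replicate 3 it was -1.33, and without cKO replicate 1 it was -0.36. Reads of *C4b* can be split with its near-identical copy *C4a*, which held 1.95% to 8.39% of their summed TPM.

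The proteases that join C1q in the C1 complex had far lower levels than *C1qa* and *C1qb* in every library. *C1ra* stood at 15.1, 6.97 and 14.8 TPM (WT) and at 2.80, 2.36 and 6.98 TPM (cKO), a log2 fold change of -1.44 (SE 0.45, adjusted p = 0.180). *C1s1* stood at 6.61, 2.51 and 8.08 TPM (WT) and at 2.43, 3.32 and 2.92 TPM (cKO), with a log2 fold change of -0.69 (SE 0.41, adjusted p = 0.410). The groups of both overlapped, those of *C1ra* by the width of the rounding between WT replicate 2 and cKO replicate 3.

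*Cfb* (chr17:34856374-34862514), which encodes factor B, the catalytic part of the alternative convertase, had the widest gap of the 9. It stood at 46.0, 57.4 and 50.3 TPM in WT replicates 1 to 3 and at 20.7, 7.30 and 13.01 TPM in cKO replicates 1 to 3. Every cKO library lay below every WT library by more than the whole spread of the WT libraries. The means were 51.2 ± 5.75 TPM and 13.7 ± 6.71 TPM (SD, n = 3), and the log2 fold change was -1.93 (SE 0.37, unadjusted p = 0.00113, adjusted p = 0.124), between -2.27 without cKO replicate 1 and -1.58 without cKO replicate 2. *Cfb* and *C2*, its counterpart in the classical pathway, lie 87 bases apart on chromosome 17. *C2* stood at 1.68 to 3.98 TPM (WT) and 3.71 to 5.27 TPM (cKO), with a log2 fold change of 0.62 (SE 0.33, adjusted p = 0.358).

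*C3* (chr17:57203967-57228136), the central component, was near the lower end of the 9. It stood at 10.3, 3.02 and 10.1 TPM (WT) and at 4.45, 1.92 and 5.75 TPM (cKO), lower in cKO in each same-numbered pair, with replicate 2 lowest of both labels. The means were 7.81 ± 4.15 TPM and 4.04 ± 1.95 TPM (SD, n = 3), the groups overlapped, and the log2 fold change was -0.74 (SE 0.52, adjusted p = 0.485). It ranged from -1.24 without WT replicate 2 to -0.39 without cKO replicate 2. *Cfp*, properdin, which stabilises the alternative convertase, lay between 9.62 and 16.6 TPM in all libraries (log2 fold change -0.33, SE 0.28, adjusted p = 0.553), and *Cfd*, factor D, was listed at 0 in all 6.

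The 100 bases before the start of *C3* (chr17:57228137-57228236) and of *C3ar1*, the C3a receptor (chr6:122856158-122856257), are shown as the pair of ligand precursor and receptor. A C/EBP match stands 45 to 38 bases before the start of *C3* (9.56% of all promoters hold that motif), and an AP-1 match stands 22 to 16 bases before that of *C3ar1* (6.75% of all promoters). The window of *C5ar1* held none of the 6 motifs.
C3: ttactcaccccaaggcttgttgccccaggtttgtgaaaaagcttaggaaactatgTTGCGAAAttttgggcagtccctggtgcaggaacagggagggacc
C3ar1: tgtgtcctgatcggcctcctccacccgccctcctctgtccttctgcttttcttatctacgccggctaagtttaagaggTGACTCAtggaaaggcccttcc

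Receptors for the released fragments were low and overlapped between the labels. *C3ar1* (chr6:122847140-122856157) stood at 10.1, 7.37 and 14.9 TPM (WT) and at 7.70, 8.37 and 3.55 TPM (cKO), so replicate 3 held the highest level of the label WT and the lowest of the label cKO. Its log2 fold change was -0.66 (SE 0.40, adjusted p = 0.413), and -0.33 without cKO replicate 3. *C5ar1* (chr7:16246743-16259540), the receptor for C5a, stood at 2.32, 3.02 and 3.67 TPM (WT) and at 1.98, 3.54 and 1.96 TPM (cKO), with a log2 fold change of -0.21 (SE 0.31, adjusted p = 0.744). The integrin chains that form receptors for cleaved C3 were more uneven: *Itgb2*, the shared beta chain, stood at 128, 43.8 and 133 TPM (WT) and at 40.4, 20.3 and 37.3 TPM (cKO), without overlap (log2 fold change -1.51, SE 0.49, adjusted p = 0.184). *Itgax*, the alpha chain of CR4, stood at 6.85, 3.24 and 5.74 TPM (WT) and at 1.85, 1.42 and 1.72 TPM (cKO), also without overlap (-1.19, SE 0.32, adjusted p = 0.150). *Itgam*, the alpha chain of CR3, lay between 4.45 and 13.7 TPM and overlapped widely (-0.24, SE 0.43, adjusted p = 0.794), with a value of 0.13 without WT replicate 3. *Itgb2* also pairs with alpha chains of other leukocytes, T cells included.

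*Serping1* (chr2:84765360-84775444) encodes the C1 inhibitor, which inactivates C1r and C1s. It stood at 141, 103 and 176 TPM in WT replicates 1 to 3 and at 36.4, 49.0 and 98.3 TPM in cKO replicates 1 to 3. The highest cKO library came close to the lowest WT library, but the groups did not overlap. The means were 140 ± 36.3 TPM and 61.3 ± 32.7 TPM (SD, n = 3), and the log2 fold change was -1.27 (SE 0.40, unadjusted p = 0.0148, adjusted p = 0.175). The unadjusted p was 0.0529 without WT replicate 3 and 0.0513 without cKO replicate 1.

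Other inhibitors did not share 1 direction. *Cr1l* (Crry), a membrane inhibitor of C3 cleavage, stood at 63.3, 58.0 and 61.3 TPM (WT) and at 41.7, 28.7 and 30.6 TPM (cKO), without overlap (log2 fold change -0.85, SE 0.22, adjusted p = 0.145). *Susd4*, another membrane inhibitor, stood at 21.6, 19.2 and 16.3 TPM (WT) and at 43.3, 49.6 and 33.3 TPM (cKO), the other way and without overlap (1.09, SE 0.25, adjusted p = 0.124). *Csmd3*, of a family of large membrane proteins with complement control repeats, stood at 2.01 to 3.13 TPM (WT) and 3.52 to 6.29 TPM (cKO) without overlap (0.74, SE 0.32, adjusted p = 0.283). The remaining inhibitors with a mean of at least 5 TPM overlapped. *Clu* (clusterin), which binds the terminal complex, was the most abundant complement gene listed, with 4845 to 8014 TPM (WT) and 2840 to 7524 TPM (cKO) and a log2 fold change of -0.62 (SE 0.43, adjusted p = 0.485). *Vtn* (vitronectin) had 0.59 (SE 0.32, adjusted p = 0.363), and *Cd59a*, which blocks the terminal pore, had -0.21 (SE 0.35, adjusted p = 0.772).

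Over the whole cascade, 53 genes were listed by role and 32 were abundant enough to test, of which 23 were below 0 and 9 above, with a median log2 fold change of -0.41. At an unadjusted p under 0.05, 8 were lower and 1 higher (*Susd4*), where 6.45% and 11.9% of all genes were. Scaling by the median of ratios gave 8 and 1 as well, where 9.54% and 7.57% of all genes were. None passed an adjusted p of 0.05. The count of 8 was 5 without WT replicate 3, where 900 of all 17555 genes tested were lower. The count of higher genes was 2 with the replicate number as a block, where 2352 of all 17555 were higher. The 44 genes besides the 9 gave 23 tested, 14 below 0, 4 lower at an unadjusted p under 0.05 (*C1ra*, *Itgax*, *Itgb2* and *Cr1l*) and a median of -0.19. By role, 3 of 8 classical genes tested were lower at that p, 1 of 3 in the C3 and alternative group, 2 of 6 receptors and 2 of 13 inhibitors. With the replicate number as a block the counts were 5 of 8, 2 of 3, 2 of 6 and 2 of 13, where 8.52% of all genes were lower. The lectin pathway and the terminal components were barely represented in these libraries: 1 of 8 lectin genes (*Masp2*) and 1 of 7 terminal genes (*C8g*) passed the filter, and *Hc*, the gene of C5, did not exceed 0.321 TPM.

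**Figure D3:**
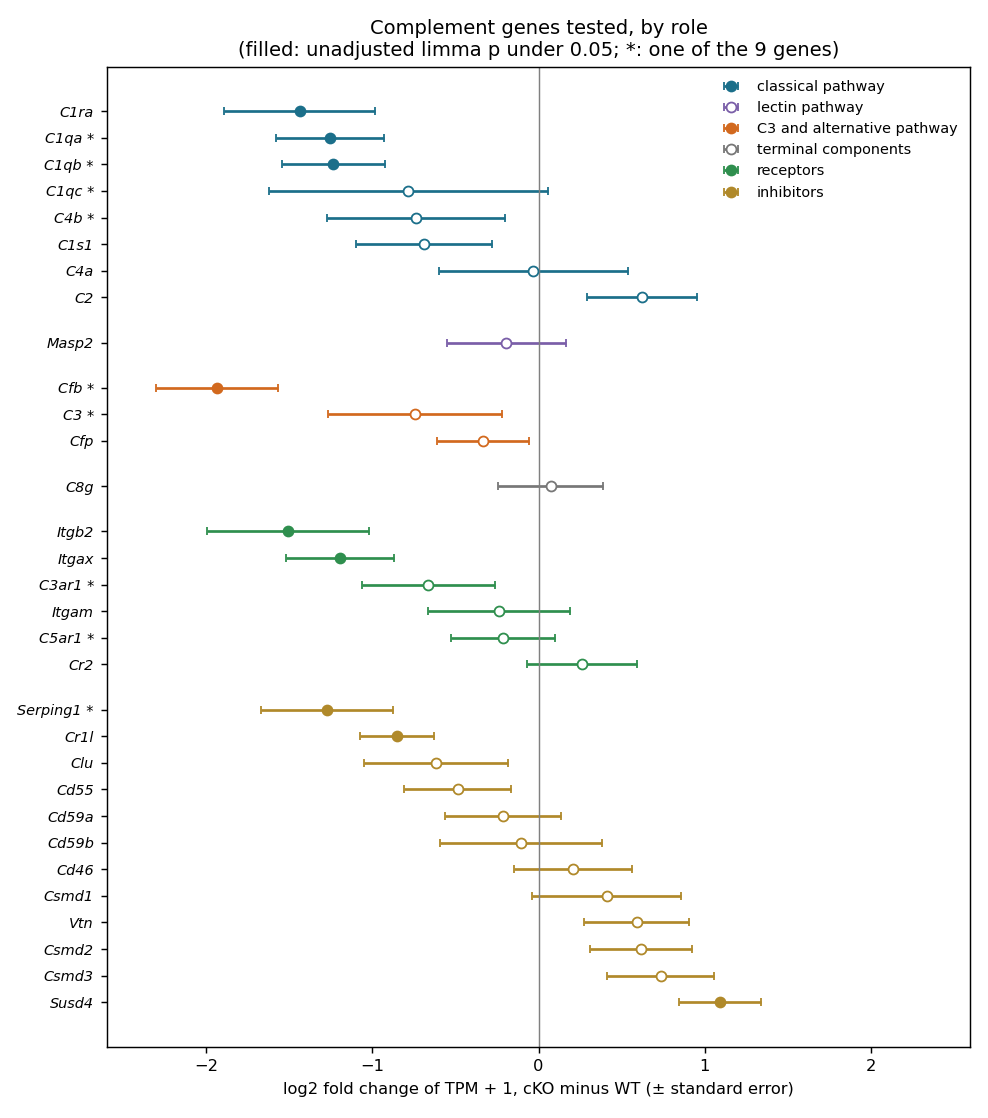
Log2 fold change of TPM + 1 (cKO minus WT, horizontal axis) with its standard error from limma for the complement genes tested and reported here, grouped by role and coloured by group; stars mark the 9 genes, and filled points have an unadjusted p under 0.05. Classical components and receptors lie mostly to the left of 0, while the inhibitors run from -1.27 (*Serping1*) to 1.09 (*Susd4*).

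The order of levels was the same under both labels by group means: *C1qa*, *C1qb*, *Serping1*, *C1qc*, *C4b*, *Cfb*, *C3ar1*, *C3* and *C5ar1*. *C1qa* exceeded 99.1% of all genes tested by its WT mean, *C1qb* 98.3% and *Serping1* 93.1%, whereas *C3* exceeded 37.2% and *C5ar1* 20.1%. Although *C1qa* exceeded *C1qb* in every library, their ranges overlapped in WT. Among the libraries labelled WT, the ranges of neighbours in this order were separate only between *C1qb* and *Serping1* and between *Cfb* and *C3ar1*. The ranges of *Serping1* and *C1qc*, of *C1qc* and *C4b*, and of *C4b* and *Cfb* overlapped. Those of *C3ar1* and *C3*, and of *C3* and *C5ar1*, overlapped as well, so the ranges do not separate these neighbours. In the libraries labelled cKO the ranges separated *C1qa* from *C1qb*, *C1qb* from *Serping1*, and *C4b* from *Cfb*, while *Cfb* overlapped *C3ar1*. The 3 C1q genes together made up 0.0909% to 0.160% of the summed TPM in WT and 0.0434% to 0.0621% in cKO.

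Markers of the cells known to make C1q were measured beside it. Over all genes tested, 38.9% were below 0 and 6.45% were lower at an unadjusted p under 0.05. All 14 microglia markers were tested and none was at 0 in all libraries. Of these, 10 were below 0, a larger share than over all genes, with a median log2 fold change of -0.45. At that p 1 was lower, near the share of all genes: *Aif1* (log2 fold change -1.54, SE 0.26, adjusted p = 0.124). Scaling by the median of ratios gave 12 below 0 and 2 lower at that p, where 9.54% of all genes were lower. The summed level of the 14 markers was 475 to 920 TPM in WT and 404 to 480 TPM in cKO. *P2ry12* and *Csf1r*, which mark microglia, had log2 fold changes of 0.10 and -0.46 (adjusted p = 0.891 and 0.559), and *Cx3cr1* and *Tmem119* had -0.60 and -0.71 (adjusted p = 0.355 and 0.389). Of 12 markers of monocytes and macrophages 10 were tested, all 10 below 0 and 6 at an unadjusted p under 0.05, and their sums, 1539 to 2606 TPM in WT and 428 to 735 TPM in cKO, did not overlap. *Lyz2*, the lysozyme gene of myeloid cells, stood at 1069 to 1362 TPM in WT and 307 to 458 TPM in cKO (log2 fold change -1.80, SE 0.24, adjusted p = 0.124), and *Ccr2*, of recruited monocytes, had -1.21 (adjusted p = 0.192), while *Mrc1* did not exceed 2.93 TPM.

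The mean log2 level of the 3 C1q genes was 8.23, 8.09 and 7.97 in the WT replicates and 7.50, 7.04 and 6.49 in the cKO replicates. After the mean of the microglia markers was taken off, the log2 difference was 3.93, 4.27 and 3.06 (WT) and 3.43, 2.90 and 2.72 (cKO), a gap of -0.73 with overlapping groups (exact two-sided permutation test, p = 0.2). It was lower in cKO in 3 of 3 same-numbered pairs (exact two-sided sign-flip test, p = 0.25), and ranged from -1.08 without WT replicate 3 to -0.47 without WT replicate 2. With *C1qa* and *C1qb* alone, a choice made after the values of *C1qc* were seen, the range was 4.48 to 4.70 in WT and 3.32 to 3.94 in cKO, a gap of -0.89 without overlap (exact two-sided permutation test, p = 0.1). Against the monocyte and macrophage markers the gap of the 3 genes was 0.03, with 3.59, 4.04 and 3.29 (WT) and 3.79, 3.72 and 3.50 (cKO; exact two-sided permutation test, p = 1), and 0.44 when the markers were limited to those with a mean of at least 5 TPM (p = 0.2 by the same exact test). The gap of 0.03 ranged from -0.14 without WT replicate 3 to 0.23 without WT replicate 2. With *C1qa* and *C1qb* alone the gap against these markers was -0.12 with overlapping groups (exact two-sided permutation test, p = 0.6). On this scale the mean of C1q differed between the labels by -1.09, that of the monocyte and macrophage markers by -1.12 and that of the microglia markers by -0.36, and the part of either cell type in the C1q values was not tested.

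Markers of other cell types that the sort could hold stood apart by label as well. All 9 T cell markers were below 0, 8 at an unadjusted p under 0.05, with sums of 648 to 1813 TPM in WT and 157 to 384 TPM in cKO. Of 6 B cell markers 5 were tested and 4 were lower at that p, with sums of 81.2 to 236 TPM in WT and 34.4 to 55.4 TPM in cKO. All 8 rod markers were higher at that p, as were 2 of the 9 RGC markers tested, whose median log2 fold change was 0.02. Over all genes tested, 38.9% were below 0, 6.45% were lower at that p and 11.9% were higher. Of the endothelial and pericyte markers 6 were tested, all below 0 and 2 at that p. With the replicate number as a block it was 4, where 8.52% of all genes were lower. Of 7 neutrophil markers 2 were tested and 0 passed. No marker of these lists was at 0 in every library. The part of these cells in the complement values was not tested.

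Reactive glia are a known source of *C4b*. The 10 markers of Mueller glia and astrocytes were all below 0, 3 at an unadjusted p under 0.05, where 38.9% and 6.45% of all genes were. None was at 0 in all libraries, and their sums overlapped (9371 to 18550 TPM in WT and 7657 to 17518 TPM in cKO). *Gfap*, the filament of reactive glia, stood at 63.0, 75.7 and 116 TPM (WT) and at 17.3, 25.7 and 37.5 TPM (cKO), a log2 fold change of -1.64 (SE 0.36, adjusted p = 0.124), while *Glul*, glutamine synthetase of Mueller glia, had -0.44 (adjusted p = 0.656). Relative to the mean of these markers, *Serping1* differed by -0.62 (exact two-sided permutation test, p = 0.3) and *C4b* by -0.09 (p = 0.9 by the same exact test), comparisons added after the values were seen. The first ranged from -0.93 without WT replicate 2 to -0.30 without WT replicate 1, and the second from -0.36 without cKO replicate 3 to 0.11 without cKO replicate 1. Both genes and the glial sum were highest in replicate 3 of each label, and the part of glia was not tested.

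**Figure D4:**
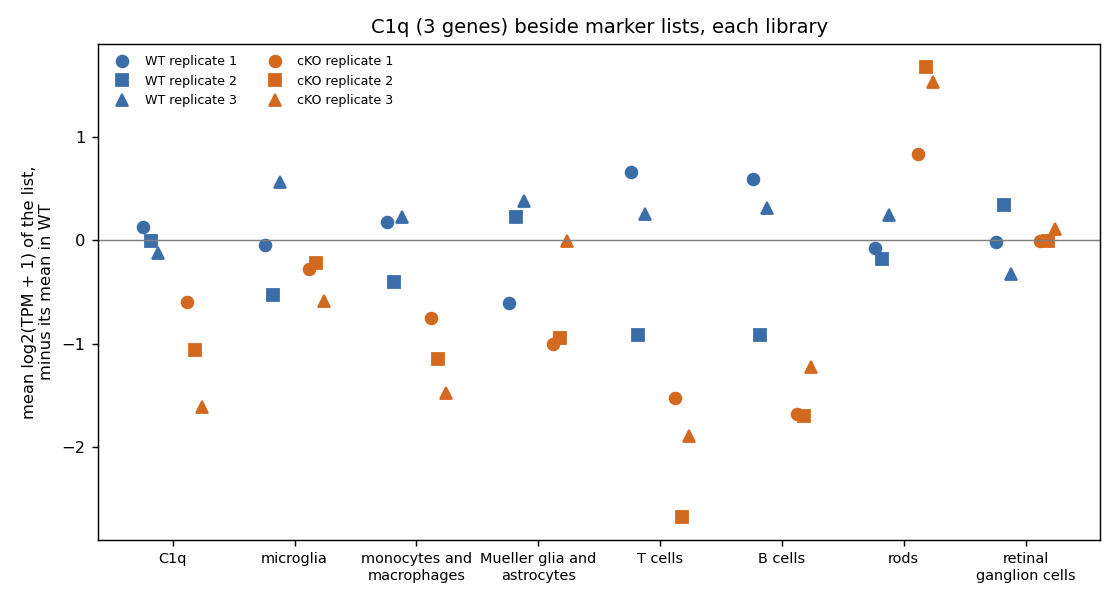
Mean log2(TPM + 1) of the 3 C1q genes and of the marker lists in each library, each minus its mean over the WT libraries (vertical axis, log2 units). Blue points are WT and orange points cKO libraries, with shapes for replicate numbers. C1q, monocytes and macrophages, T cells and B cells are lower in all cKO libraries than in any WT library, rods are higher in all, and microglia and Mueller glia overlap.

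The genes whose pattern over the 6 RNA-seq libraries was most like the C1q mean, among 12654 genes with a mean of at least 5 TPM, were *Arpc2* (Pearson r of 0.990), *Itgb7*, *Ccl7*, *Cdpf1* and *Cmtm7* (0.983), and 19 genes had an r of at least 0.95. *Arpc2* encodes a part of the actin-branching Arp2/3 complex, *Itgb7* an integrin chain of lymphocytes and *Ccl7* a chemokine that draws monocytes. For *C3* they were *Gpr35* (0.993), *Ptbp3*, *H2-K2*, *H2-K1* and *Flt3l* (0.983), with 65 genes at 0.95 or more. *H2-K1* encodes a class I antigen-presenting chain, with mean levels of 7514 TPM in WT and 3028 TPM in cKO. These correlations describe 6 libraries that also differ by label and in the levels of cell type markers. The C1q mean includes *C1qc* and was lowest in replicate 3 of each label, whereas *C1qa* and *C1qb* were highest in WT replicate 3. The genes most like the C1q mean thus follow a pattern that neither *C1qa* nor *C1qb* had alone.

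Open chromatin was not recorded at the ends of the 9 genes in the ATAC-seq comparison, which lists regions with a peak in at least 2 of the 4 libraries and gives the authors' mean log2 normalized reads per group. No region lay within 1000 bp of an end of any member, and 0 of 9 had a region within 3000 bp, where 51.5% of 15518 tested genes with a known position had a region within 1000 bp and 57.0% within 3000 bp. Among those genes with a mean of at least 5 TPM it was 57.6%. The nearest region lay from 5428 bp (*Cfb*) to 100188 bp (*C4b*) away. For the C1q cluster it was chr4:136836021-136836560, 43566 bp from *C1qb* and beside an end of *Ephb2*, with 4.05 in WT and 1.24 in cKO (16.6 and 2.36 normalized reads). The 9 genes had 7 distinct nearest regions, of which 6 were lower in cKO by more than 1 (log2), where 59.6% of all 16600 regions were, and 4 by more than 2, where 40.7% were. With 2 libraries per label and group values alone, no test or error can be given, and depth is unknown.

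*C3* was the only member with a region of the comparison inside its body, chr17:57214127-57214995, with 3.77 in WT and 2.94 in cKO and with peaks in WT replicate 1 and cKO replicate 2. In the peak lists of single libraries, which held 42265 to 76522 peaks, 11 peaks lay in the 9 genes or within 1000 bp of an end. They belonged to *C3* (5 peaks), *C3ar1* (4), *C5ar1* (1) and *Cfb* (1, just outside the gene), and none lay at *C1qa*, *C1qb*, *C1qc*, *C4b* or *Serping1*, the 5 of the 9 with the highest mean TPM in WT. At an end were 2 of the 11, the lower end of *Cfb* in cKO replicate 2 (chr17:34855599-34855822) and the lower end of *C3ar1* in cKO replicate 1 (chr6:122847659-122847864), the latter being the far end from its start. WT replicate 2, which had the fewest peaks, had none. Among all 53 complement genes 4 had a region within 1000 bp, with WT and cKO values of 3.86 and 1.82 for *Cr1l*, 4.38 and 2.90 for *Clu*, 4.52 and 1.69 for *Csmd3*, and 3.81 and 2.93 for *C8g*. Of the 12 markers of monocytes and macrophages 0 had any, as had 0 of the 8 rod markers. For microglia it was 1 of 14, for Mueller glia and astrocytes 2 of 10 and for RGCs 2 of 12. Of the tested genes with a known position 51.5% had 1 or more.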

How the data were processed

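The members, gene lists and tests were chosen with earlier results of these data known. Groups came from the sample labels. RNA-seq reads were trimmed by the authors with Trimmomatic, quantified with Salmon 1.0.0 and summed to genes with tximport on GENCODE vM23, and they deposited TPM per gene and library. ATAC-seq reads were aligned with Bowtie 2 2.3.5.1 on GRCm38, peaks were called per library (MACS2 2.2.5 is named in the submitters' processing notes), and the authors deposited log2 mean normalized reads per group from DiffBind, with peak positions. The deposited comparisons (the authors' fold changes, p-values and adjusted p-values from DESeq2 1.26.0 and DiffBind) were not used. Since TPM is not a count, a count model was not fitted, and depth is unknown for each library.

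Genes that reached 1 TPM in 3 or more of the 6 libraries were kept (17555), and log2(TPM + 1) was compared with limma 3.58.1 in R 4.3.3 (lmFit, eBayes with a trend), with Benjamini-Hochberg adjustment over all genes tested and a threshold of 0.05. Single values were compared by exact two-sided permutation over libraries, which gives no p under 0.1. The series' design text calls the libraries biological replicates, and the labels give no batch. The fit was checked on simulated data. Alternatives were a pseudocount of 0.1, no filter, a minimum mean TPM of 5, median-of-ratios scaling, no trend, the replicate number as a block, leaving out each library, a window of 3000 bp, a log2 difference of 2, and a reciprocal overlap of 50%. Same-numbered libraries deviated together across 17555 genes in replicates 1 and 3 (r = 0.334 and 0.425) and weakly in replicate 2 (0.101). The numbers were used to pair the libraries in the block and pair results only, while the main fit and the permutation tests were unpaired. This pairing rests on the same data as the block and pair results and not on a label. Other pairings of WT and cKO libraries reached 0.193 at most (WT replicate 1 with cKO replicate 2), which is above the value of the replicate 2 pair.

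Genes named are the 9, other listed complement genes with a mean TPM of at least 5 in either group, fixed marker genes and *Arid1a*. The 5 genes most like C1q and *C3* in pattern are named too. *C2*, *Cfd*, *Hc*, *Masp2*, *C8g*, *Pou4f2*, *Isl1*, *C4a* and *Aif1* were added after their values were seen. Values of 2 genes that this rule names are not reported here. Gene positions and promoter sequences are RefSeq's on GRCm38.p6, matched by symbol, with a promoter sequence for 5 of the 9. Positions are counted from 1. Python 3.11.15, pandas 2.3.3 and scipy 1.17.1 were used, with figures by matplotlib 3.10.9.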

Additional observations from a re-analysis of the deposited data

How the results depend on the processing

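All 107 log2 fold changes of the 9 genes over the settings run were below 0, from -2.27 to -0.04, and the lowest adjusted p was 0.0809 (*Cfb*, replicate block). The count of members lower at an unadjusted p under 0.05 (4) was 7 with the replicate number as a block and 3 to 5 with a library left out. The counts over the complement genes were 5 to 10 lower (8 with all libraries) and 1 to 2 higher when a library was left out. The count higher was 2 with the block and without limma's trend. Over all 17555 genes tested, 697 to 1386 were lower (1133 with all libraries) and 1034 to 2366 higher when a library was left out. Over all genes, 2352 were higher with the block and 2119 without limma's trend. The block also took the counts lower at an unadjusted p from 3 to 5 among classical genes, from 1 to 2 in the C3 and alternative group and from 2 to 4 among endothelial and pericyte markers. Over all genes tested, the block took the share lower at an unadjusted p under 0.05 from 6.45% to 8.52%. It changed no call at an adjusted p under 0.05 among the complement genes. C1q minus monocyte and macrophage markers was 0.44 with markers of a mean TPM of at least 5, against 0.03. *Itgam* ran from -0.59 without WT replicate 2 to 0.13 without WT replicate 3, and *Cd59a* from -0.55 without cKO replicate 3 to 0.054 without cKO replicate 1. The causes were not tested. Of the single-gene values, 258 kept their direction and 2 did not. Of the other values, 111 stayed within the limits set and 8 did not. *C5ar1* has no value at a mean TPM of at least 5. A window of 3000 bp gave 0 of 9 genes with a region, a log2 difference of 2 put 40.7% of all regions lower in cKO, and a reciprocal overlap of 50% took the peak of cKO replicate 2 from the *C3* region and that of cKO replicate 1 from the region nearest *Cfb*. For the ATAC-seq regions no paired analysis was possible because they carry group values only. The 3 libraries per label and the unknown depth limit all RNA values.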
